A study of Homo sapiens with 2 samples.

Results

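The YAP-TEAD genes described here are 10 genes: the coactivators YAP1 and WWTR1 (the gene of TAZ), the DNA-binding factors TEAD1, TEAD2, TEAD3 and TEAD4, and 4 of their known targets, CYR61, CTGF, ANKRD1 and AMOTL2. They were taken by gene name from 26370 names listed in both deposited files, and all 10 had a mean of at least 1 FPKM, as did 11668 genes in all. FPKM, fragments scaled to the length of the transcript and to the depth of the library, is a level per length, so values of different genes can be set side by side. Messenger RNA was read in 2 libraries of CHME3, an immortalised human line that the labels call microglia, at passages 4 to 6. The untreated group is 1 library of cells without drug, and the treated group is 1 library of cells that received 5 µg/ml of muscarinic receptor antagonists. Paired values below are given untreated first and treated second. The labels name neither the compound nor the time of exposure, and both groups share the cell line and the range of passages. With 1 library per condition no difference here has a replicate check and none was tested; intervals on fragments cover counting error only, and compare these libraries and not the conditions. In bulk RNA, fewer cells that express a gene and less RNA per cell cannot be told apart.

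The files gave an estimated depth of 6753527 fragments untreated and 7283318 treated. The label microglia was not borne out by defining markers: 11 of 12 had values below 1 FPKM in each library, and 7, with AIF1, TMEM119 and CX3CR1 among them, were at 0. The 12 summed to 16.05 and 12.7 FPKM, nearly all from CD68. Fibroblast markers were over 1 FPKM in 6 of 10 and summed to 5725 and 6221 FPKM. Most of this came from FN1, at 2725 and 3021 FPKM, and VIM, at 1967 and 2025 FPKM. COL1A1 was at 499 and 545 FPKM, TAGLN at 397 and 498 FPKM, THY1 at 119 and 115 FPKM and PDGFRB at 17.9 and 17.7 FPKM. The list went both ways, as COL1A2 was at 0.196 and 0.157 FPKM, and COL3A1, LUM and DCN were at 0. Epithelial markers were over 1 FPKM in 3 of 7 and summed to 257 and 278 FPKM. Of this, KRT18 gave 241 and 262 FPKM, while EPCAM and CDH1 were under 1 FPKM and KRT19 and KRT5 at 0. Astrocyte markers were over 1 FPKM in 1 of 6, neuron markers in 1 of 6 and endothelial markers in 0 of 6. The part of these levels in the results below was not tested.

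In the Hippo pathway, the kinases MST1 and MST2 activate the kinases LATS1 and LATS2, which phosphorylate YAP and TAZ and so keep them in the cytoplasm or mark them for degradation. When the kinases are quiet, as in spread cells on a stiff surface, YAP and TAZ enter the nucleus, where they have no DNA-binding domain of their own and bind TEAD proteins on chromatin. Receptors coupled to G proteins are known to act on this pathway, and Gq-coupled and G12/13-coupled receptors to favour nuclear YAP. Messenger RNA levels show neither phosphorylation nor location of YAP and TAZ, so the targets are the part of these data closest to pathway output.

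The core of the TEAD binding motif, GGAATG, was searched on both strands in RefSeq promoter windows of GRCh38.p14, each from 250 bases before to 50 bases after a gene's start. Windows were given for 7 of the 10 genes, and TEAD1, TEAD4 and CYR61 were not among them. The motif was found in 14.03% of all 35116 windows, and 3 or more times in 0.128%. The CTGF window held it 3 times, the ANKRD1 window 2 times, and the YAP1 window and 1 of 2 AMOTL2 windows 1 time each, while the windows of WWTR1, TEAD2 and TEAD3 held none. The AP-1 motif TGANTCA was in the ANKRD1 window alone among these, 1 time, against 7.71% of all windows, and the CArG box of serum response factor was in none of them, against 1.29%. A match describes letters and is no evidence of binding. The stretch of the CTGF window before the transcript start in the deposited files is shown because it holds the 3 matches of a target described below. It lies at chr6:131951379-131951622 on the minus strand, is read 5′ to 3′ along the gene, and has the motif in capitals. The lines after it show the matches of ANKRD1, YAP1 and AMOTL2 with 10 bases on each side, in the same notation and with distances from the RefSeq start; the AMOTL2 match is the motif on the other strand. The AMOTL2 match and the nearer ANKRD1 match lie inside the first exon of transcripts in the deposited files, which start upstream of the RefSeq start used here.
CTGF: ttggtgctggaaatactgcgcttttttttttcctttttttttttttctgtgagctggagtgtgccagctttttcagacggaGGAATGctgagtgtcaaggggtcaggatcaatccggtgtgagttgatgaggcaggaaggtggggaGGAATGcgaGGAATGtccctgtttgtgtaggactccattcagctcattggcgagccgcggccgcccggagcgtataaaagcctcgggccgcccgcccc
ANKRD1, 220 bases before the start (chr10:90921292-90921317, minus strand): caccaccaaaGGAATGgccctctcac
ANKRD1, 128 bases before the start (chr10:90921200-90921225, minus strand): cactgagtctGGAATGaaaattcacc
YAP1, 162 bases before the start (chr11:102110275-102110300, plus strand): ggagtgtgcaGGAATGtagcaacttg
AMOTL2, 69 bases before the start (chr3:134374501-134374526, minus strand): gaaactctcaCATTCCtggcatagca

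The comparison asked how far these messengers differ between the libraries. The set ran from genes of middle level to some of the most abundant, with nearly equal values in both libraries. The 10 genes ranked between the 49.6th and the 98.7th percentile of mean level among the 11668 genes. By log2 of (treated FPKM + 1) over (untreated FPKM + 1), 5 were higher and 5 lower, between -0.11 and 0.26, with a median of 0.00 against 0.00 over all genes. None reached 2-fold, where 0.66% of all genes did, 0.351% higher and 0.309% lower. None was at least 25% higher or at least 20% lower on this scale, the smaller size counted below, where 5.49% of all genes were higher and 4.29% lower by as much, 9.77% together. Over 10 genes these shares amount to at most 1 gene, so a count of 0 does not stand apart from the background. Of the 10, 8 lay between the quartiles of all genes, -0.10 and 0.11, as does 50% of genes by construction.

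Of the targets, CYR61 and CTGF had the highest levels of the set. Coordinates are on hg38, and a range in parentheses after a ratio is its 95% counting interval. CYR61, which encodes the secreted matricellular protein CCN1 (chromosome 1, 85580761 to 85583965), was at 453 FPKM in the untreated and 451 FPKM in the treated library. These rested on 6353 and 6779 fragments, and the FPKM ratio of 0.996 had a 95% counting interval of 0.962 to 1.03. It thus had both the highest level and the narrowest interval of the set, and the 2 values overlap within the bounds that the authors deposited, 441 to 464 and 440.0 to 462. CTGF, which encodes its relative CCN2, a mediator of fibrosis (chromosome 6, 131948177 to 131951378), was at 189.9 FPKM in the untreated and 179.0 FPKM in the treated library, from 2790 and 2829 fragments. Its ratio of 0.943 had a counting interval of 0.894 to 0.994, the only one of the 10 that excludes 1, where 12.5% of all genes had such an interval and 6.03% had one below 1. The authors' bounds for CTGF, 183 to 197 and 172 to 186, overlap between the libraries. CYR61 and CTGF are also known targets of serum response factor, and CYR61 of growth factor stimulation as an immediate early gene.

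The other targets were lower, with ratios near 1. AMOTL2, an angiomotin-like scaffold that binds YAP and is part of a negative feedback (chromosome 3, 134355345 to 134375417), was at 37.0 FPKM in the untreated and 37.7 FPKM in the treated library, with a ratio of 1.02 (0.941 to 1.102). ANKRD1, an ankyrin repeat protein of heart and skeletal muscle that responds to stretch (chromosome 10, 90912100 to 90921275), was at 10.4 FPKM in the untreated and 10.8 FPKM in the treated library. It rested on 126 and 141 fragments, so its ratio of 1.03 had a wider counting interval, 0.807 to 1.33, which reaches beyond 25% higher. CYR61 was 43.4 times the level of ANKRD1 in the untreated and 41.9 times in the treated library, so the targets spanned a wide range while the order among them was the same in both.

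**Figure D1:**
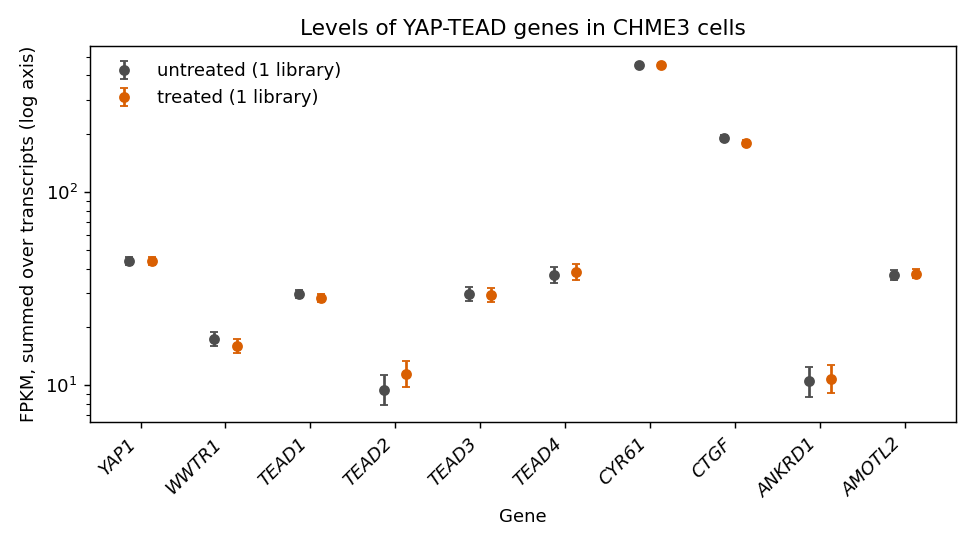
FPKM of the 10 genes on a log axis, with gray points for the untreated and orange points for the treated library. Error bars are 95% exact Poisson intervals on estimated fragments. The 2 points of each gene lie almost side by side, with CYR61 at 453 and 451 FPKM at the top and TEAD2 at 9.43 and 11.5 FPKM among the lowest.

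Of the coactivators, YAP1 was the more abundant messenger. YAP1 (chromosome 11, 102110461 to 102233423) was at 43.8 FPKM in the untreated and 43.9 FPKM in the treated library, with a ratio of 1.004 (0.936 to 1.08). WWTR1 (chromosome 3, 149517235 to 149703273) was at 17.3 FPKM in the untreated and 15.9 FPKM in the treated library, from 576 and 568 fragments, with a ratio of 0.921 (0.817 to 1.03). Both intervals include 1. YAP1 was thus 2.53 times the level of WWTR1 in the untreated and 2.76 times in the treated library, and both together were at 61.1 and 59.9 FPKM. The row that the files name TAZ belongs to tafazzin, a mitochondrial enzyme, and is not the coactivator; it was at 14.4 and 14.5 FPKM.

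All 4 TEAD genes were expressed, and TEAD2 was the least abundant. TEAD4 (chromosome 12, 2959312 to 3040676) was at 37.1 FPKM in the untreated and 38.6 FPKM in the treated library. TEAD3 (chromosome 6, 35473597 to 35497084) was at 29.6 and 29.4 FPKM, and TEAD1 (chromosome 11, 12674422 to 12944737) at 29.5 and 28.3 FPKM. Their ratios had counting intervals of 0.908 to 1.19 for TEAD4, 0.882 to 1.12 for TEAD3 and 0.899 to 1.02 for TEAD1, all of which include 1. TEAD2 (chromosome 19, 49340596 to 49362457) was at 9.43 FPKM in the untreated and 11.5 FPKM in the treated library. It had the largest difference of the set, 0.26 on the log2 scale or 1.21 as a ratio of FPKM, but from 125 and 163 fragments its counting interval, 0.9495 to 1.54, includes 1. Its log2 ratio was above that of 91.3% of all genes. Its exons share 9 bases with those of CD37 on the opposite strand, a gene at 0 and 0.133 FPKM. Summed, the 4 TEAD genes were at 106 FPKM in the untreated and 108 FPKM in the treated library. TEAD4 gave 35.1% and 35.8% of this sum, TEAD3 27.99% and 27.3%, TEAD1 27.96% and 26.3%, and TEAD2 8.93% and 10.6%.

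The order of levels was the same in both libraries but for the last places. From the top it ran CYR61, CTGF, YAP1, TEAD4, AMOTL2, TEAD3, TEAD1 and WWTR1, followed by ANKRD1 and TEAD2 in the untreated and by TEAD2 and ANKRD1 in the treated library. Neighbours whose counting intervals overlap in both libraries, so that their order is not settled, were TEAD4 and AMOTL2, TEAD3 and TEAD1, and ANKRD1 and TEAD2. YAP1 and TEAD4 overlapped in the treated library, where YAP1 ran from 41.8 to 46.1 FPKM and TEAD4 from 35.1 to 42.3 FPKM, and lay apart in the untreated library.

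**Figure D2:**
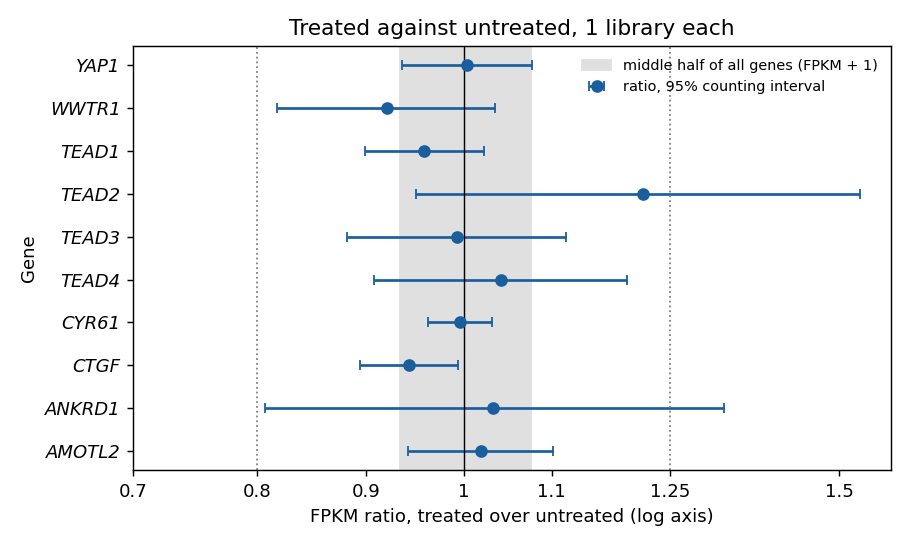
FPKM ratio of treated over untreated for each gene on a log axis, with 95% counting intervals; the gray band runs between the quartiles of all 11668 genes, computed with 1 added to each FPKM, and dotted lines mark 25% higher and 20% lower. No gene passes the dotted lines, and the CTGF interval, 0.894 to 0.994, is the only one that excludes 1.

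For 8 of the 10 genes, all but TEAD2 and ANKRD1, the counting interval lay wholly between 20% lower and 25% higher. The same was true of 35.4% of all 11668 genes. Interval width follows the number of fragments, and the 10 genes ranked from the 49.6th percentile of level upward. The share over all genes is not matched for level, so this comparison does not show that these genes differed less than others. Shares of all genes with counting intervals above or below 1, also for the lists below, are likewise not matched for level. These intervals leave out differences between cultures, which 1 library per condition does not show.

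Below the level of the gene, the values that the authors assigned to single transcripts differed more. Of the 10 genes, 5 have 1 RefSeq transcript in the files and 5 have several, 24 in all. Among the 19 of these 24 with a mean of at least 1 FPKM, the authors' bounds of the 2 libraries lay apart for 9, or 47.4%, against 17.6% of 11897 such transcripts of all genes with several transcripts and 3.27% of 4991 genes with 1. Those 9 transcripts belong to YAP1, WWTR1 and AMOTL2, and 5 of them to YAP1 alone. The shares are not matched for level or for the number of transcripts per gene. This comparison thus does not show that these transcripts differed more than others. Transcripts of a gene share most of their exons and compete for the same fragments, so a higher value of one goes with a lower value of another and they are not independent.

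In YAP1, 5 of 7 transcripts over the floor had bounds apart while the gene total was 43.8 and 43.9 FPKM. The most abundant was NM_001195044, at 14.5 FPKM in the untreated and 17.4 FPKM in the treated library, with bounds that overlap. NM_006106, which lacks 3 alternative segments, was at 8.33 FPKM (authors' bounds 6.995 to 9.66) in the untreated and 1.89 FPKM (1.27 to 2.52) in the treated library. NM_001282098 was listed near 0 in the untreated and at 3.27 FPKM (2.44 to 4.10) in the treated library, and NM_001130145 was at 8.26 (6.88 to 9.65) and 13.2 FPKM (11.6 to 14.9). NM_001282100 was at 7.74 and 4.37 FPKM, and NM_001282097 at 1.80 and 0.358 FPKM.

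The YAP1 transcripts differ by 3 internal segments and, for NM_001195045, by the first exon. The segments are shown here because the transcript values turn on them, in capitals with 10 bases of the neighbouring exons on each side. They are from GENCODE 29 transcripts on GRCh38, plus strand. The exon of 114 bases encodes the second WW domain of YAP, a protein-binding domain. The extension of 12 bases and the exon of 48 bases lie in the region of the leucine zipper and the transactivation domain.
Exon of 114 bases, chr11:102186018-102186131: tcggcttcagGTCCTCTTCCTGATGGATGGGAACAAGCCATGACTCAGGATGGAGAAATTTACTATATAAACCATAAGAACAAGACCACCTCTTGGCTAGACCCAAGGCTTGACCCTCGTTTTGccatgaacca
Extension of 12 bases, chr11:102206075-102206086: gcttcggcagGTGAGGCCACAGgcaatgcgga
Exon of 48 bases, chr11:102209517-102209564: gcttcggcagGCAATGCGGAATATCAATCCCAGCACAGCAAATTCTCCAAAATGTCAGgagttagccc

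Transcripts with the exon of 114 bases carried 33.6 of 43.8 FPKM in the untreated library, or 76.8%, and 38.4 of 43.9 FPKM in the treated library, or 87.4%. Those with the extension of 12 bases carried 23.8% and 25.2%. Those with the exon of 48 bases carried 30.2% and 38.7%. In both libraries most YAP1 signal was thus assigned to forms with the second WW domain, and each of the shorter segments, taken alone, was in forms with the smaller share. The shares rest on how the authors' software divided fragments among transcripts of 4983 to 5398 bases. These differ by the segments and, for NM_001195045 of 4983 bases, by the first exon. No counts across splice junctions were given, so the differences between libraries were not tested.

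WWTR1 and AMOTL2 also had transcripts with bounds apart, some with another first exon. WWTR1 transcript NM_015472 was at 16.6 FPKM (15.0 to 18.2) in the untreated and 11.8 FPKM (10.5 to 13.2) in the treated library. NM_001168280, whose first exon of 201 bases lies inside the first exon of 337 bases of NM_015472, was at 0.737 and 3.25 FPKM, and NM_001168278, which starts upstream, near 0 and at 0.831 FPKM. AMOTL2 transcript NM_016201 carried 84.5% and 82.6% of its gene, at 31.3 and 31.2 FPKM, with bounds that overlap. Its minor transcripts differed in opposite directions: NM_001278683, with an upstream first exon (chromosome 3, 134375188 to 134375417), was at 1.01 and 5.51 FPKM, and NM_001278685, which shares the first exon of the main transcript, at 4.73 and 1.06 FPKM. In TEAD4, NM_003213 carried 86.7% and 90.4% of the gene. In TEAD2, NM_003598 was at 3.35 FPKM (2.07 to 4.63) and 6.00 FPKM (4.46 to 7.54), the widest difference of that gene, with bounds that overlap.

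**Figure D3:**
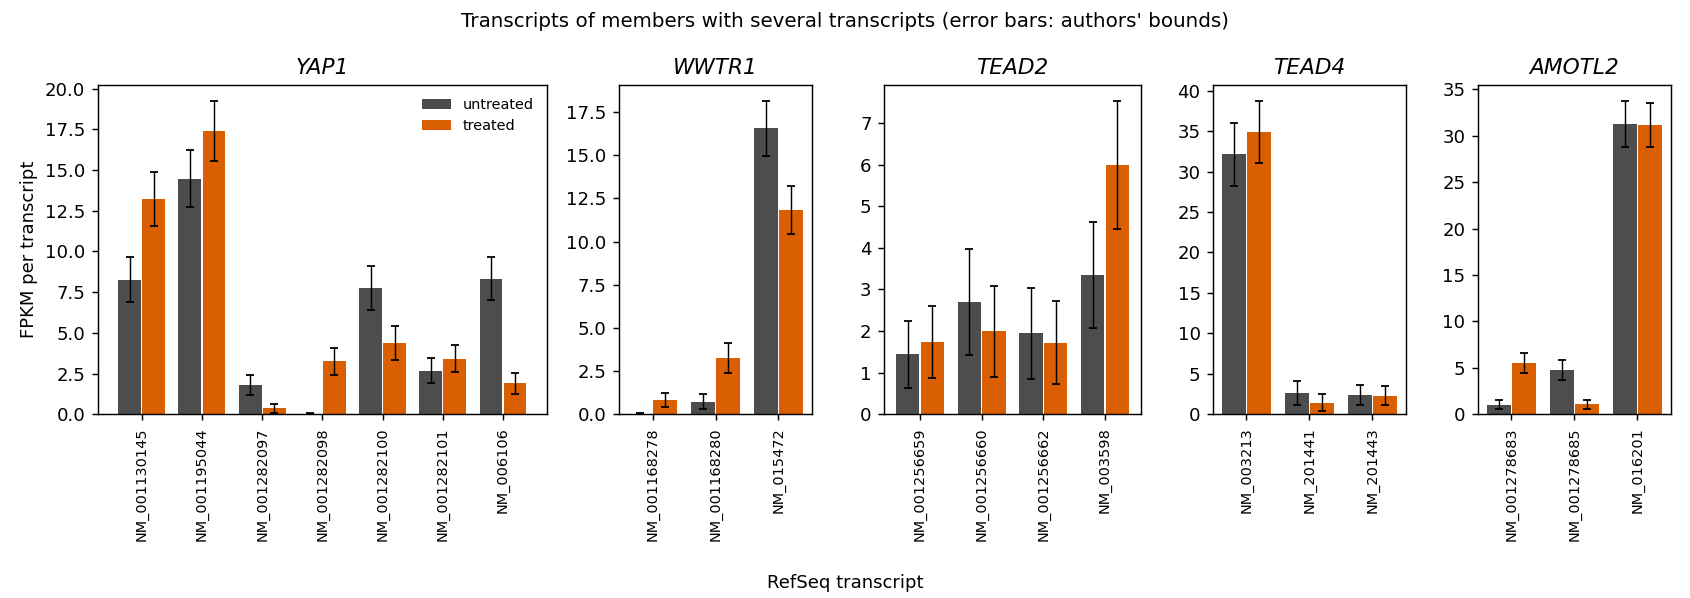
FPKM per RefSeq transcript for the 5 genes with several transcripts (those whose mean reached 0.4 FPKM), gray for the untreated and orange for the treated library, with the authors' bounds as error bars and an axis for each gene. Bounds lie apart for YAP1 NM_006106 (8.33 and 1.89 FPKM) and WWTR1 NM_015472 (16.6 and 11.8 FPKM), while the main AMOTL2 transcript is level.

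The kinases upstream and their adaptors were expressed at moderate levels, with about as many genes higher as lower in the treated library. All 13 genes of the Hippo kinase list, with their adaptors, were over 1 FPKM. Of these, 7 were higher and 6 lower, with a median log2 ratio of 0.00. None reached the smaller size, where 9.77% of all genes did. The counting interval lay above 1 for 1 and below 1 for 3, against 6.44% and 6.03% of all genes. LATS2, which is also a YAP target, was at 37.6 and 31.7 FPKM, for a ratio of 0.845 (0.782 to 0.913). Its relative LATS1 was at 3.91 and 3.19 FPKM, with an interval that includes 1. Of the MOB1 adaptors that activate LATS kinases, MOB1B was at 9.88 and 7.76 FPKM, for a ratio of 0.786 (0.685 to 0.905), while the more abundant MOB1A was at 43.1 and 43.2 FPKM. MOB1B was past the smaller size, alone in this list, with 0.1 added in place of 1. At that setting 6.61% of all genes were lower by as much.

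Upstream scaffolds, a list not sorted by whether its genes restrain or favour YAP, were higher more often than lower. Of 20 listed genes 19 were over 1 FPKM, and 16 of these were higher and 3 lower, where 50.7% of all genes were higher. The median log2 ratio was 0.12 against 0.00 over all genes, and the counting interval lay above 1 for 6 and below 1 for none, against 6.44% and 6.03% of all genes. With the most abundant transcript of each gene alone, 11 of 18 were higher. WWC2, a relative of KIBRA, was at 2.12 and 3.19 FPKM, for a ratio of 1.501 (1.18 to 1.91), and was the 1 gene of this list past the smaller size with 1 added to each FPKM, where 5.49% of all genes were higher by as much. AMOT, angiomotin, was at 3.10 and 4.11 FPKM, for a ratio of 1.33 (1.05 to 1.65). SCRIB, a polarity protein, was at 37.2 and 42.7 FPKM, for a ratio of 1.15 (1.06 to 1.24), and AJUBA, which binds LATS kinases, at 31.4 and 34.7 FPKM, for a ratio of 1.11 (1.01 to 1.21). LIMD1, from the same family as AJUBA, was at 3.87 and 3.03 FPKM, for a ratio of 0.782 with an interval that includes 1. AMOT and LIMD1 were short of the smaller size only through the added 1, and with 0.1 added the list had 2 genes higher and 1 lower by as much, against 8.05% and 6.61% of all genes. RASSF6 was listed at 0 in both libraries.

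The STRIPAK complex, a phosphatase assembly that acts on MST kinases, was listed with 13 genes. None was past the smaller size with 1 added to each FPKM, where 9.77% of all genes were. No counting interval excluded 1, where 12.5% of all genes had such an interval. Over 13 genes, counts of 0 do not stand apart from these shares. Of the 13, 6 were higher and 7 lower, with a median log2 ratio of -0.01. Its scaffold and catalytic subunits PPP2R1A, at 114 and 116 FPKM, and PPP2CA, at 67.5 and 70.2 FPKM, were the most abundant. STRIP2 was at 2.38 and 1.85 FPKM, and PDCD10 at 24.4 and 21.6 FPKM. With 0.1 added in place of 1, STRIP2 was past the smaller size, where 6.61% of all genes were lower by as much.

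Of the VGLL cofactors, which bind TEAD at the surface that YAP uses, VGLL3 was at 7.18 and 6.57 FPKM and VGLL4, a repressor of TEAD targets, at 5.48 and 5.12 FPKM, with a median log2 ratio of -0.10 and intervals that include 1. VGLL1 and VGLL2 were listed at 0 in both libraries, and the limit that 3 fragments set in the untreated library was 0.429 and 0.217 FPKM. Among 11 genes of YAP retention and degradation, 10 were over 1 FPKM, 5 higher and 5 lower, with a median log2 ratio of -0.01. Against 9.77% of all genes, none of the 10 was past the smaller size. The counting interval lay below 1 for 2 of them and above 1 for none, against 6.03% and 6.44% of all genes. The 14-3-3 protein YWHAE was at 490 and 506 FPKM and YWHAZ at 256 and 236 FPKM, the latter with a ratio of 0.921 (0.885 to 0.959). The casein kinase CSNK1E was at 106 and 94.2 FPKM, for a ratio of 0.892 (0.836 to 0.953), and FBXW11, an F-box protein of the ligase that degrades YAP, at 25.3 and 22.9 FPKM.

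Other YAP and TAZ targets differed little between the libraries. Of 18 genes of a target list, compiled without the 4 targets above, 17 were over 1 FPKM, 11 higher and 6 lower, where 50.7% of all genes were higher, with a median log2 ratio of 0.08 against 0.00 over all genes. The counting interval lay above 1 for 4 and below 1 for 1, the LATS2 already described, against 6.44% and 6.03% of all genes. AXL, a receptor tyrosine kinase, was at 195 and 190.4 FPKM and MYOF, myoferlin, at 61.8 and 62.0 FPKM, and these most abundant genes had intervals that include 1. DOCK5, a Rac activator, was at 4.57 and 5.71 FPKM, for a ratio of 1.2499 (1.05 to 1.49), short of the smaller size with or without the added 1. IGFBP3, which binds insulin-like growth factors, was at 1.39 and 2.36 FPKM. With 1 added to each FPKM it was the only gene of this list past that size, against 5.49% of all genes. Its ratio of 1.70 rested on 23 and 42 fragments and its interval, 0.996 to 2.95, includes 1. FOXF2 was under the limit of 3 fragments in both libraries.

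The relatives of the targets were nearly silent, in contrast to CYR61 and CTGF. Of the other CCN genes, NOV was at 0.243 and 0.226 FPKM, WISP2 at 0.483 and 0.112 FPKM, which is 4 fragments against 1 and a ratio of 0.232 (0.00470 to 2.34), and WISP1 and WISP3 were listed at 0 in both libraries. Of the other muscle ankyrin repeat genes, ANKRD2 was at 1.44 and 0.618 FPKM, 12 fragments against 6 with a ratio of 0.429 (0.132 to 1.24), and ANKRD23 at 0.551 and 0.456 FPKM.

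Genes of serum response factor and its actin-sensing cofactors, which share targets with YAP, were also listed. Of 12, 7 were higher and 5 lower, where 50.7% of all genes were higher, with a median log2 ratio of 0.09 against 0.00. The counting interval lay above 1 for 5 and below 1 for none, against 6.44% and 6.03% of all genes. These shares are not matched for level, and abundant genes have narrower intervals. MYL9, from 3836 and 4474 fragments, had an interval of 1.04 to 1.13 around a ratio of 1.08. TAGLN, an actin-binding protein, was the 1 gene past the smaller size, where 5.49% of all genes were higher by as much, at 397 and 498 FPKM, for a ratio of 1.252 (1.19 to 1.32). It passed narrowly, at a log2 ratio of 0.324 against 0.322. No gene of this list did with the median ratio of all genes set to 0, or with estimated fragments scaled to the library total. MYL9, a myosin light chain, was at 564 and 610.2 FPKM, CNN1, calponin, at 13.8 and 15.3 FPKM, and ACTG2, a smooth muscle actin, at 5.14 and 4.17 FPKM. TAGLN had the highest log2 ratio of this list, 0.32, and ACTG2 the lowest, -0.25. CYR61 and CTGF, targets of both factors, stood at -0.01 and -0.08, and the other YAP and TAZ targets had a median of 0.08.

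**Figure D4:**
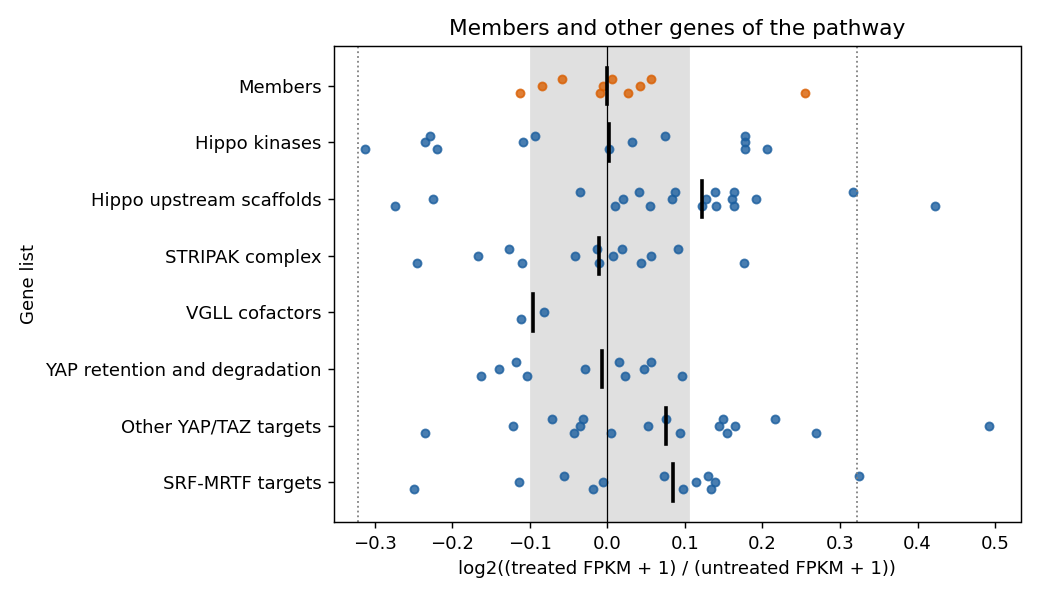
log2 ratio of treated over untreated, with 1 added to each FPKM, for the 10 genes (orange) and the genes over 1 FPKM of 7 lists (blue); black bars are medians, the gray band runs between the quartiles of all genes and dotted lines mark 25% higher and 20% lower. The 10 genes center on 0.00, the upstream scaffolds on 0.12.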

How the data were processed

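Messenger RNA was measured in 2 libraries, 1 untreated and 1 treated, grouped by the treatment label. The submitters' processing notes name TopHat, Cuffdiff and build hg38, and versions are not given in the sources used here. The deposited files name Cufflinks on every line and hold, for each of 56891 RefSeq transcripts, an FPKM with lower and upper bounds. The authors' files also hold a score column, scaled within each gene, which was not used. Whether the libraries keep strand is not given in the sources used here.

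FPKM was summed over the transcripts of a gene. Differences are log2((treated FPKM + 1)/(untreated FPKM + 1)), which understates those of low genes, over genes whose mean reached 1 FPKM. Fragments were recovered from the authors' bounds as (2 × FPKM/(upper bound − FPKM)) squared for genes with 1 transcript, and otherwise estimated from FPKM, length and a depth fitted on whole values (within 0.01), from 10 fragments and transcripts of 1000 bases upward. Only 21.1% and 21.3% of values were whole, so these are estimates. For the 5 members with 1 transcript both estimates differed by at most 2.32%. Ratio intervals are 95% exact conditional binomial. Python 3.11.15, pandas 2.3.3 and scipy 1.17.1 were used. The interval was tested on simulated Poisson counts, which checks the calculation only. Those counts carry no error from dividing fragments among transcripts.

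The members and lists were chosen with earlier results of these data known. Named genes are all members, all genes of lists of at most 6, and, of longer lists, the 3 with the largest absolute log2 ratio and the 2 with the highest mean FPKM; other genes named (RASSF6, FOXF2, CD37, TAZ and markers) were chosen after their values were seen. Of the genes that the rule names, 1 is not reported here. The target list was compiled from general knowledge, LATS2 and PTPN14 stand in 2 lists, and TAGLN in a pathway and a marker list.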

Additional observations from a re-analysis of the deposited data

How the results depend on the processing

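The results were recomputed with a pseudocount of 0.1 or 0.01, without a floor or with one of 5 FPKM, with the most abundant transcript of each gene, with the median ratio of all genes set to 0, as TPM, as TPM without short transcripts and ribosomal RNA, and as estimated fragments scaled to the library total; the list medians and counts were added after seeing the data. Every member is over both floors, so 26 recomputed values over members could not move. Of the other 93, 87 stayed within their counting limits or at the same count, as did the 54 list medians. The number of genes in a list past the smaller size was 0 or 1 as reported, and 22 of 54 recounts differed from it by over 1.5 times, with at most 3 genes in each. With the most abundant transcript alone, 2 members passed the smaller size (25% higher or 20% lower), TEAD2 at a log2 ratio of 0.69 and WWTR1 at -0.45, and YAP1 was at 0.25, which follows from leaving out their other transcripts. The number of members whose interval excludes 1 went from 1 to 0 with a 99% interval, and to 0 by the authors' bounds, which could be compared for the 5 members with 1 transcript. Under the other settings CYR61 ranged from -0.02 to 0.00, CTGF from -0.09 to -0.08 and TEAD2 from 0.25 to 0.28. Depth limits TEAD2 and ANKRD1 most. No paired analysis was possible because each group has 1 library.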
